A study of Mus musculus with 6 samples.

Results

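Neuropeptides are short signalling peptides that a few types of retinal neuron release beside their fast transmitter. Each is cut from a longer precursor protein inside dense-core vesicles, and after release it acts on G protein-coupled receptors, often on cells at some distance. In the mammalian retina most peptide-releasing neurons are amacrine cells, the inhibitory interneurons of the inner retina, and many amacrine types were first told apart by the peptide they hold. The 10 genes described here encode the best known of these precursors: the tachykinin precursors Tac1 and Tac2, the vasoactive intestinal peptide precursor Vip and its relative Adcyap1, neuropeptide Y (Npy), the opioid precursors Penk and Pdyn, and the precursors of somatostatin (Sst), cholecystokinin (Cck) and corticotropin-releasing hormone (Crh). They were taken by gene symbol from a table of 24346 symbols. All 10 were found, and 9 were tested because their level averaged 1 FPKM or more across the 6 libraries. Crh was below that level.

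The values are FPKM, a fragment count corrected for transcript length and library size, so levels of different genes can be compared. They come from mouse retina in 2 groups: 3 libraries from retinas with a conditional knockout of Cyfip2 (CKO) and 3 from retinas labelled Cyfip2 WT. The Cyfip2 protein belongs to the WAVE complex, which steers the assembly of branched actin. The Cre driver, the floxed allele, age, sex and the number of animals behind a library are not stated in the labels, so p-values measure the spread between these libraries, which may be technical.

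Cyfip2 itself was at 8.33, 10.2 and 11.2 FPKM in the CKO libraries, against 35.5, 63.1 and 62.3 FPKM in the WT libraries, so WT 1 lay well below the other WT libraries and above every CKO library. Its log2 fold change was -2.29 (limma adjusted p = 0.0239); when each library was left out in turn, the adjusted p stayed under 0.05 only without WT 1, at 0.00160, and reached 0.197 without WT 2. As a check of the tissue, the cone arrestin gene Arr3 was at 59.8 to 72.9 FPKM in CKO and 57.6 to 76.7 FPKM in WT libraries. Of 11 photoreceptor and Muller glia markers 0 were called. The groups of 2 did not overlap, both lower in CKO, as for 6.95% of all tested genes. The cone opsin gene Opn1sw was at 93.25 to 107.8 FPKM in CKO and 116.2 to 125.6 FPKM in WT libraries (log2 fold change -0.26). The transcription factor gene Nrl was at 592.8 to 637 FPKM in CKO and 659.9 to 678.6 FPKM in WT libraries (-0.13). The summed level of 8 pigment epithelium markers was 11.4 to 15.7 FPKM in CKO and 7.30 to 14.6 FPKM in WT libraries. That of 8 lens and cornea markers was 12.04 to 28.1 FPKM in CKO and 18.9 to 90.0 FPKM in WT libraries, with the highest value in WT 2. Of its keratins, Krt5 and Krt14 were listed at 0 in all 6 libraries. The corneal keratin Krt12 was at 0.259 to 0.567 FPKM in CKO and 0.237 to 0.383 FPKM in WT libraries. Depth relative to WT 1, read from the steps of low values, was 1.04 to 1.3 in CKO and 1 to 1.09 in WT libraries.

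Several neuropeptide genes are known to be driven through the cAMP response element TGACGTCA, a short promoter motif bound by the factor CREB, or through its core TGACG alone. RefSeq promoters (GRCm38.p6) were matched by symbol for 8 of the 10 precursors, as 10 promoters, and both motifs were searched on both strands in the 250 bases before each start. The core was in a promoter of 5 of these 8 genes, Tac1, Vip, Adcyap1, Sst and Cck, and in 17.8% of all 32851 promoters in the same table. Adcyap1 has 2 overlapping promoters in the table, which hold the same copy of the core. The full element, which holds the core on each strand, was in the Sst promoter, against 1.55% of all promoters. Shown here are the promoters of the 4 precursors with the smallest p in the comparison below and that of Sst, each read 5′ to 3′ on the gene's own strand, with TGACG or its reverse complement CGTCA in capitals. For Pdyn, which has 2 promoters in the table, the one farther upstream is given. GENCODE gene models of Tac1 and Sst begin upstream of these RefSeq starts.
Tac2, chr10:127724228-127724477, plus strand: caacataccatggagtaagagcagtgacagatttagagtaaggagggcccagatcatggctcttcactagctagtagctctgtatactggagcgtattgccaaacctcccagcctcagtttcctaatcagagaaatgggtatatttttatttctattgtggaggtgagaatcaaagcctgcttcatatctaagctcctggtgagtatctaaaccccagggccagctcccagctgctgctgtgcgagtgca
Tac1, chr6:7554811-7555060, plus strand: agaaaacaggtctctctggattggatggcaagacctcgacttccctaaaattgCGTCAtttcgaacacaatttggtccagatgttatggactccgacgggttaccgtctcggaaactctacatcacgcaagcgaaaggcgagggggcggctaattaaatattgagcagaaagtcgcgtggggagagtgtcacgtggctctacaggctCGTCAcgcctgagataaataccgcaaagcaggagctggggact
Pdyn, chr2:129699939-129700188, minus strand: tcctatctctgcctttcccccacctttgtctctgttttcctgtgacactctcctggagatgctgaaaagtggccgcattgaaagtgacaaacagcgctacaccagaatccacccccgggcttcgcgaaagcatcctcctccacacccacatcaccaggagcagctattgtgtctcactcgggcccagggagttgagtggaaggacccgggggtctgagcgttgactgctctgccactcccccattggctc
Cck, chr9:121495695-121495944, minus strand: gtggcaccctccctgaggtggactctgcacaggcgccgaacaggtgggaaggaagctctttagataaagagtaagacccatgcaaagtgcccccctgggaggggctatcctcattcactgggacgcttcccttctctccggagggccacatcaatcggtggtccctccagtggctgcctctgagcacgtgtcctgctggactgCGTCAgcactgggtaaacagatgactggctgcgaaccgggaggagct
Sst, chr16:23890845-23891094, minus strand: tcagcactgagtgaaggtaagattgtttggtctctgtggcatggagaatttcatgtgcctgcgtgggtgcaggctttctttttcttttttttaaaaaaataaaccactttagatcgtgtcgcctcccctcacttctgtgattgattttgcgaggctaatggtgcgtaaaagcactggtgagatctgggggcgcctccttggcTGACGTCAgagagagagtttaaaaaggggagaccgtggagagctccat

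In the Tac1 promoter the core begins 197 and 43 bases before the start, in that of Cck 47 bases before it, and in that of Sst the full element begins 48 bases before it. Neither Tac2 nor Pdyn has these letters in the window. The promoters of the tachykinin pair also differ in base content, with 17 CpG dinucleotides in that of Tac1 and 2 in that of Tac2. A match describes the sequence and was not linked to any value below.

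Expression of the 10 precursors spanned a wide range. By mean, Npy, Vip, Sst, Pdyn, Adcyap1 and Crh held the same rank in both genotypes. Tac1 and Tac2 exchanged ranks 2 and 3, and Cck and Penk exchanged ranks 6 and 8. Npy was the most abundant in every library, at 40.5 to 50.2 FPKM over all 6, above the range of every other precursor and above 92.8% of all symbols in the table. It made up 35.4% to 39.3% of the summed FPKM of the 10 genes in CKO and 41.0% to 44.8% in WT libraries. Tac1 and Tac2 came next, and the ranges of these neighbours overlapped over the 6 libraries. Below them Vip, Sst, Pdyn, Penk and Cck lay close together, with means over all libraries of 7.45, 6.95, 6.11, 6.03 and 5.84 FPKM and ranges that overlap over the 6 libraries. Within CKO, though, the range of Vip lay above those of Pdyn and Cck. Adcyap1, with a mean of 1.26 FPKM, and Crh, with 0.770 FPKM, were lowest. The summed FPKM of the 10 was 114.3, 114.8 and 124.5 in CKO and 105, 114.7 and 121.7 in WT libraries, and these ranges overlap.

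**Figure D1:**
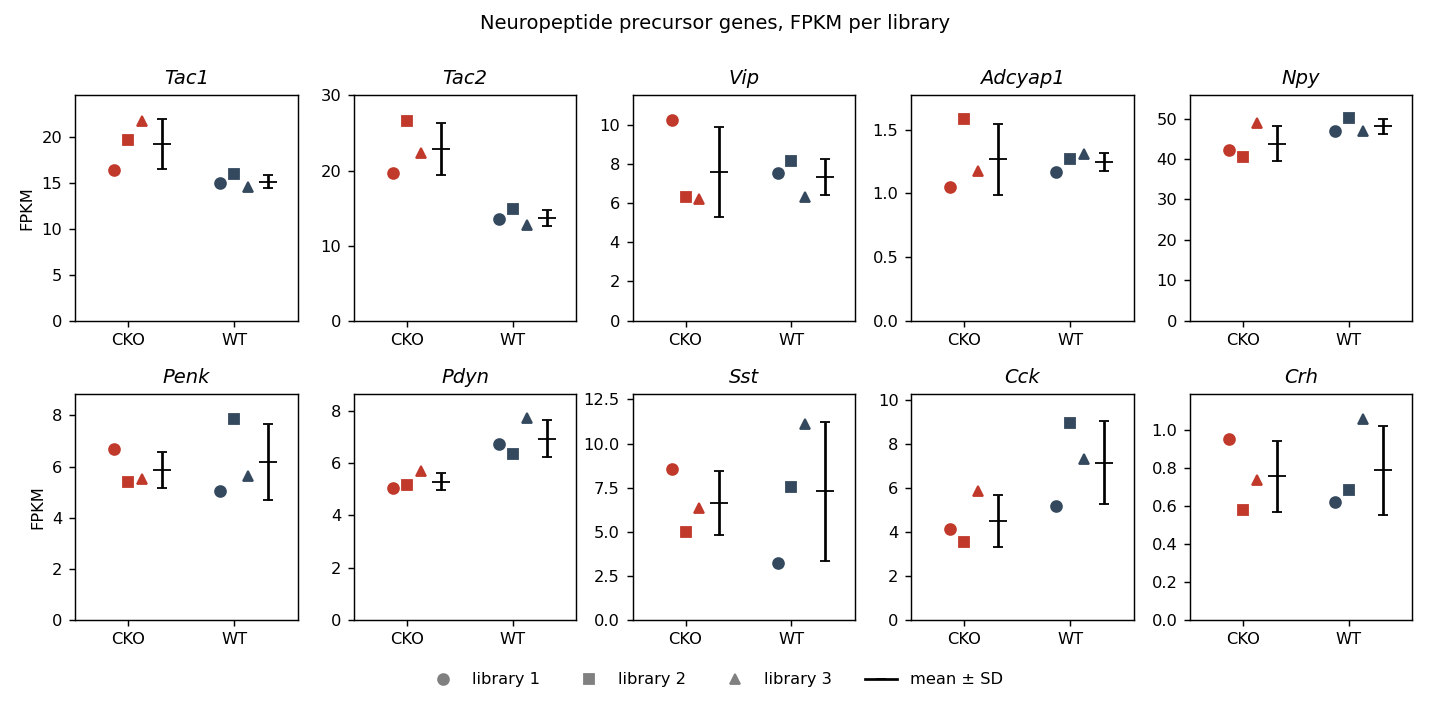
FPKM of the 10 neuropeptide precursor genes in each library, with CKO left of WT in every panel, 1 marker shape for each library number and the mean ± SD (n = 3) beside the points. Tac1 and Tac2 lie higher in every CKO library than in any WT library, Pdyn lies lower, and the groups of the other 7 genes overlap.

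No precursor passed the test between CKO and WT retina. Of the 9 tested genes, 0 had a limma adjusted p under 0.05, a level that 0.0227% of all 13215 tested genes reached. By direction, 0 precursors were called higher, against 0.0151% of all tested genes, and 0 lower, against 0.00757%. At an unadjusted p under 0.05 there were 4 precursors, against 7.88% of all tested genes. Tac2 and Tac1 were the 2 with higher means in CKO, against 3.52%, and Pdyn and Cck the 2 with lower means, against 4.36%. The groups did not overlap for 3 precursors, against 13.9% of all tested genes. The median log2 fold change was -0.02 over the 9 precursors and -0.0016 over all tested genes. The precursors were proposed with earlier results of these libraries in view, which included the values of Tac2 and Cck, so these counts are no independent evidence.

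Tac2, the precursor of neurokinin B, stood furthest apart among the precursors. It was at 19.7, 26.6 and 22.4 FPKM in CKO, against 13.6, 14.8 and 12.8 FPKM in WT libraries. Every CKO library lay above every WT library, as for 6.96% of all tested genes. CKO averaged 22.9 ± 3.48 FPKM and WT 13.7 ± 1.04 FPKM (mean ± SD over 3 libraries), which is a ratio of 1.67. On the log2 scale CKO was higher by 0.69 (SE 0.11, 95% interval 0.45 to 0.94), with a limma unadjusted p of 0.000209 and an adjusted p of 0.162. With any 1 library left out it stayed between 0.58 and 0.79, and over 17 alternative fits the limma adjusted p ran from 0.102 to 0.504.

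Tac1, the precursor of substance P and neurokinin A, had a smaller difference of the same sign. It was at 16.4, 19.7 and 21.7 FPKM in CKO, against 14.9, 15.9 and 14.5 FPKM in WT libraries. The groups do not overlap, though CKO 1 lies close to WT 2. CKO was higher by a log2 fold change of 0.32 (SE 0.10, interval 0.09 to 0.55, limma adjusted p = 0.507), and leaving out 1 library moved it between 0.23 and 0.43. Tac1 was the more abundant tachykinin precursor in WT retina and Tac2 in CKO retina. The ratio of Tac2 to Tac1 was 1.21, 1.35 and 1.03 in CKO, against 0.908, 0.929 and 0.878 in WT libraries, a measure chosen after the values were seen and not tested. The genes lie on different chromosomes, Tac1 on chromosome 6 from 7554879 to 7565834 and Tac2 on chromosome 10 from 127724478 to 127731768, both on the plus strand (GRCm38). Within 1 Mb of Tac2 none of 59 other tested genes was called. Their log2 fold changes ran from -0.223 to 1.603, with a median of 0.02. Within 1 Mb of Tac1 none of 8 was called, and their fold changes ran from -0.16 to 0.14 with a median of -0.02. So few genes were called anywhere that 0 calls here cannot show whether either region differed.

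Most markers of amacrine cells also had higher means in CKO. All 19 listed markers were tested and 0 passed the adjusted threshold, while at an unadjusted p under 0.05 there were 11 with higher and 3 with lower means in CKO, against 3.52% and 4.36% of all tested genes. Their median log2 fold change was 0.19, and their summed level was 1107 to 1133 FPKM in CKO and 1030 to 1087 FPKM in WT libraries. The smallest p among them belonged to Tfap2b, an amacrine transcription factor (log2 fold change 0.25, limma adjusted p = 0.196). Also among the leading markers were C1ql2, a secreted C1q-like protein (0.36), and Calb2, the calcium buffer calretinin, in the other direction (-0.19). The part of these markers in the Tac1 and Tac2 values was not tested. In whole retina a different number of cells of a type and a different amount of RNA per cell cannot be told apart.

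Vip and Adcyap1, whose peptides VIP and PACAP belong to the secretin family, had means that hardly differed between the groups. Vip was at 10.2, 6.31 and 6.20 FPKM in CKO, against 7.54, 8.14 and 6.31 FPKM in WT libraries. CKO 1 was the highest of all 6 and the other CKO libraries were the lowest, so the groups overlap entirely. The log2 fold change was 0.02 (interval -0.39 to 0.42, limma adjusted p = 0.988), and without CKO 1 it was -0.19. Adcyap1, which in mouse retina is known from the melanopsin-expressing ganglion cells, was at 1.05, 1.58 and 1.18 FPKM in CKO, against 1.17, 1.27 and 1.31 FPKM in WT libraries. The difference was 0.0053 on the log2 scale (interval -0.30 to 0.31, limma adjusted p = 0.994). Opn4, the melanopsin gene, was at 4.75, 4.29 and 2.93 FPKM in CKO, against 2.88, 3.74 and 3.89 FPKM in WT libraries, also with overlapping groups. These intervals leave room for differences of about 0.3 to 0.4 in either direction on the log2(FPKM + 1) scale. That scale understates changes of low genes such as Adcyap1, so its room in FPKM ratio is wider. Vip lies on chromosome 10 from 5639218 to 5647617 and Adcyap1 on chromosome 17 from 93199017 to 93206537, both on the plus strand.

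Npy, a peptide of amacrine cells in the mouse retina, was at 42.1, 40.5 and 48.9 FPKM in CKO, against 47.0, 50.2 and 47.0 FPKM in WT libraries. CKO 1 and CKO 2 lay below every WT library, whereas CKO 3 lay within their range. The log2 fold change was -0.13 (SE 0.07, interval -0.30 to 0.04, limma adjusted p = 0.720). The fold change lay below 0 in all 17 alternative fits, from -0.21 without CKO 3 to -0.08 without CKO 2. The Npy gene spans 49822710 to 49829507 on chromosome 6, plus strand.

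Of the opioid precursors, Pdyn had groups that did not overlap and Penk had groups that did. Pdyn, the source of dynorphins, was at 5.04, 5.15 and 5.68 FPKM in CKO, against 6.72, 6.36 and 7.71 FPKM in WT libraries. All CKO libraries lay below all WT libraries, as for 6.95% of all tested genes. CKO averaged 5.29 ± 0.342 FPKM and WT 6.93 ± 0.701 FPKM (mean ± SD over 3 libraries), which is a ratio of 0.764. Its log2 fold change was -0.33 (SE 0.09, interval -0.55 to -0.12), with a limma unadjusted p of 0.00754 and an adjusted p of 0.460. With 1 library left out it ran from -0.38 without WT 2 to -0.26 without WT 3, and over the 17 alternative fits the limma adjusted p ran from 0.327 to 0.799. Penk, the source of enkephalins, was at 6.69, 5.41 and 5.53 FPKM in CKO, against 5.05, 7.87 and 5.62 FPKM in WT libraries. Its groups overlap, with WT 2 the highest of the 6 and WT 1 the lowest, and the log2 fold change was -0.05 (interval -0.40 to 0.30, limma adjusted p = 0.961). Without WT 2 it was 0.11. Pdyn lies on chromosome 2 from 129686565 to 129699844 and Penk on chromosome 4 from 4133531 to 4138819, both on the minus strand. Penk overlaps the gene A830012C17Rik on the other strand; how the counting used strand is not stated, so reads of these genes cannot be told apart.

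Cck, the cholecystokinin precursor, had the most negative fold change of the 9 tested precursors. It was at 4.14, 3.56 and 5.85 FPKM in CKO, against 5.19, 8.97 and 7.33 FPKM in WT libraries. The groups overlap, since CKO 3 lay above WT 1. CKO averaged 4.52 ± 1.19 FPKM and WT 7.16 ± 1.89 FPKM (mean ± SD over 3 libraries), which is a ratio of 0.631. Its log2 fold change was -0.56 (SE 0.20, interval -1.03 to -0.09), with a limma unadjusted p of 0.0247 and an adjusted p of 0.581. WT 2, the library with the highest Cck, also had the highest lens and cornea sum, and without it the log2 fold change was -0.40 (limma unadjusted p = 0.0934). The unadjusted p was also above 0.05 without CKO 1, without CKO 2 and without WT 3. The part of lens tissue in the Cck values was not tested. Cck is also known from cone bipolar cells, the interneurons that carry cone signals inward. The 11 listed markers of these cells had a median log2 fold change of -0.11. Of these markers 0 were called, and 3 had lower means in CKO at an unadjusted p under 0.05, against 4.36% of all tested genes. Their summed level was 507.7 to 556.5 FPKM in CKO and 554.3 to 577.7 FPKM in WT libraries, and their part in the Cck values was not tested. Among the leading markers by p value were the transcription factors Irx5 (log2 fold change -0.25) and Isl1 (-0.13) and the calcium sensor Scgn (-0.15). The Cck gene spans 121489824 to 121495694 on chromosome 9, minus strand.

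Sst and Crh gave the least precise and the lowest values. Sst, the somatostatin precursor, was at 8.54, 4.97 and 6.34 FPKM in CKO, against 3.22, 7.52 and 11.1 FPKM in WT libraries. The WT libraries alone spanned the full range of the 6, with an SD of 54.3% of their mean against 27.2% in CKO. Its log2 fold change was -0.02 with an interval of -0.84 to 0.80 (limma adjusted p = 0.992), the widest among the tested precursors. It was -0.44 without WT 1 and 0.32 without WT 3, so its sign depended on which library was left out. Crh, the corticotropin-releasing hormone precursor, was at 0.951, 0.576 and 0.736 FPKM in CKO, against 0.622, 0.682 and 1.05 FPKM in WT libraries, with overlapping groups. Without the filter on low values its log2 fold change was -0.02 (limma adjusted p = 0.979). Sst lies on chromosome 16 from 23889573 to 23890958 and Crh on chromosome 3 from 19693401 to 19695396, both on the minus strand.

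**Figure D2:**
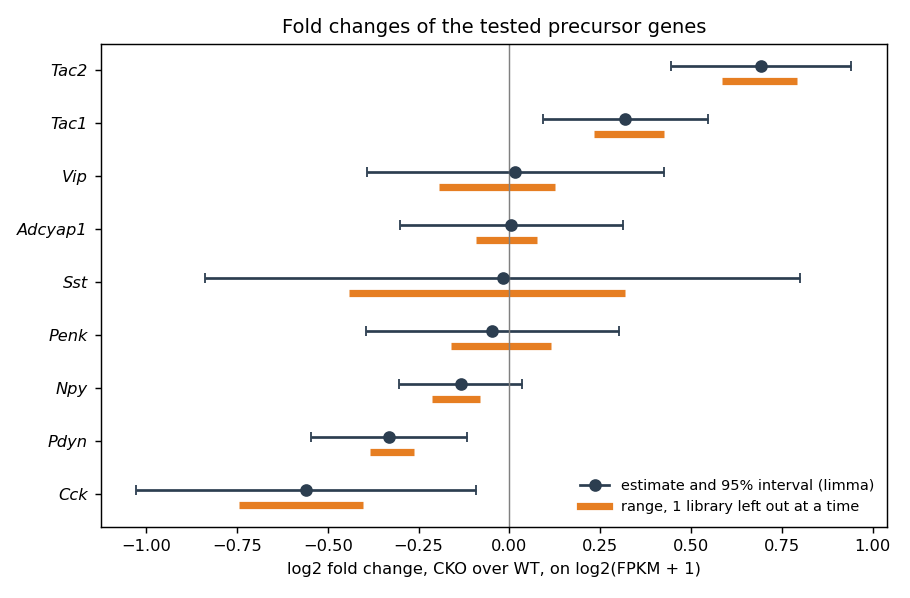
Log2 fold change of CKO over WT for the 9 tested precursor genes on the log2(FPKM + 1) scale, with the limma 95% confidence interval (dots and bars) and the range when 1 library is left out at a time (thick lines). The intervals of Tac2 and Tac1 lie above 0 and those of Pdyn and Cck below 0 before adjustment for multiple testing, and the leave-one-out ranges of Vip, Adcyap1, Sst and Penk cross 0.

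No receptor for these peptides passed the test, and most were at low levels. Of 23 listed receptor genes, 9 reached a mean of 1 FPKM and were tested, and 0 were called. At an unadjusted p under 0.05 there was 1, against 7.88% of all tested genes. That 1 was Crhr2, which reached the filter only through its CKO values. The median log2 fold change of the 9 was -0.04. Among tachykinin receptors, Tacr1, the substance P receptor, was at 2.51, 2.43 and 2.54 FPKM in CKO, against 2.34, 2.17 and 1.48 FPKM in WT libraries, and its groups did not overlap. Tacr1 had a log2 fold change of 0.23 (interval -0.08 to 0.54, limma adjusted p = 0.743). Tacr3, the neurokinin B receptor, was at 6.40, 4.93 and 5.37 FPKM in CKO, against 6.16, 6.66 and 5.65 FPKM in WT libraries, with a log2 fold change of -0.13 (interval -0.37 to 0.12, limma adjusted p = 0.809). Thus the point estimates of the receptors lay on opposite sides of 0, both with intervals that include 0. Tacr2, the neurokinin A receptor, was listed at 0 in all 6 libraries.

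Vipr2, a receptor for both VIP and PACAP, was the most abundant receptor of the list. It was at 17.7, 20.2 and 20.96 FPKM in CKO, against 21.7, 19.6 and 22.1 FPKM in WT libraries (log2 fold change -0.10, interval -0.29 to 0.08, limma adjusted p = 0.781). Its relative Vipr1 lay at 0.136 to 0.273 FPKM in CKO and 0.161 to 0.293 FPKM in WT libraries. Adcyap1r1, the PACAP receptor, was at 2.67, 2.94 and 3.47 FPKM in CKO, against 2.42, 2.67 and 2.12 FPKM in WT libraries. These groups do not overlap, by a margin that is small between CKO 1 and WT 2, and the log2 fold change was 0.24 (interval -0.03 to 0.52, limma adjusted p = 0.684). Crhr2, a receptor of the corticotropin-releasing hormone family, was at 1.87, 1.16 and 1.17 FPKM in CKO, against 0.767, 0.840 and 0.649 FPKM in WT libraries. It reached the filter only through its CKO values, and its log2 fold change was 0.44 (interval 0.09 to 0.80, limma unadjusted p = 0.0205, adjusted p = 0.556). Crhr1, the other receptor of that family, was at 4.51, 4.70 and 3.41 FPKM in CKO, against 4.16, 4.37 and 4.50 FPKM in WT libraries, with a log2 fold change of -0.05.

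Sstr2, a somatostatin receptor, averaged 3.10 ± 0.418 FPKM in CKO, against 2.40 ± 0.610 FPKM in WT (mean ± SD over 3 libraries), with overlapping groups and a log2 fold change of 0.28. Cckbr, the cholecystokinin B receptor, averaged 4.33 ± 0.186 FPKM in CKO and 4.81 ± 0.454 FPKM in WT, and Npy1r, a neuropeptide Y receptor, 1.076 ± 0.366 FPKM in CKO and 1.108 ± 0.0264 FPKM in WT. The opioid receptor genes were low: Oprm1, the mu receptor, was at 0.787, 0.385 and 0.442 FPKM in CKO, against 0.501, 0.771 and 0.0849 FPKM in WT libraries. Oprd1 and Oprk1, the delta and kappa receptors, stayed below 0.2 FPKM in every library. Dynorphins act mainly on the kappa receptor, whose gene Oprk1 was at 0.0260 to 0.0713 FPKM in CKO and 0 to 0.185 FPKM in WT libraries.

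**Figure D3:**
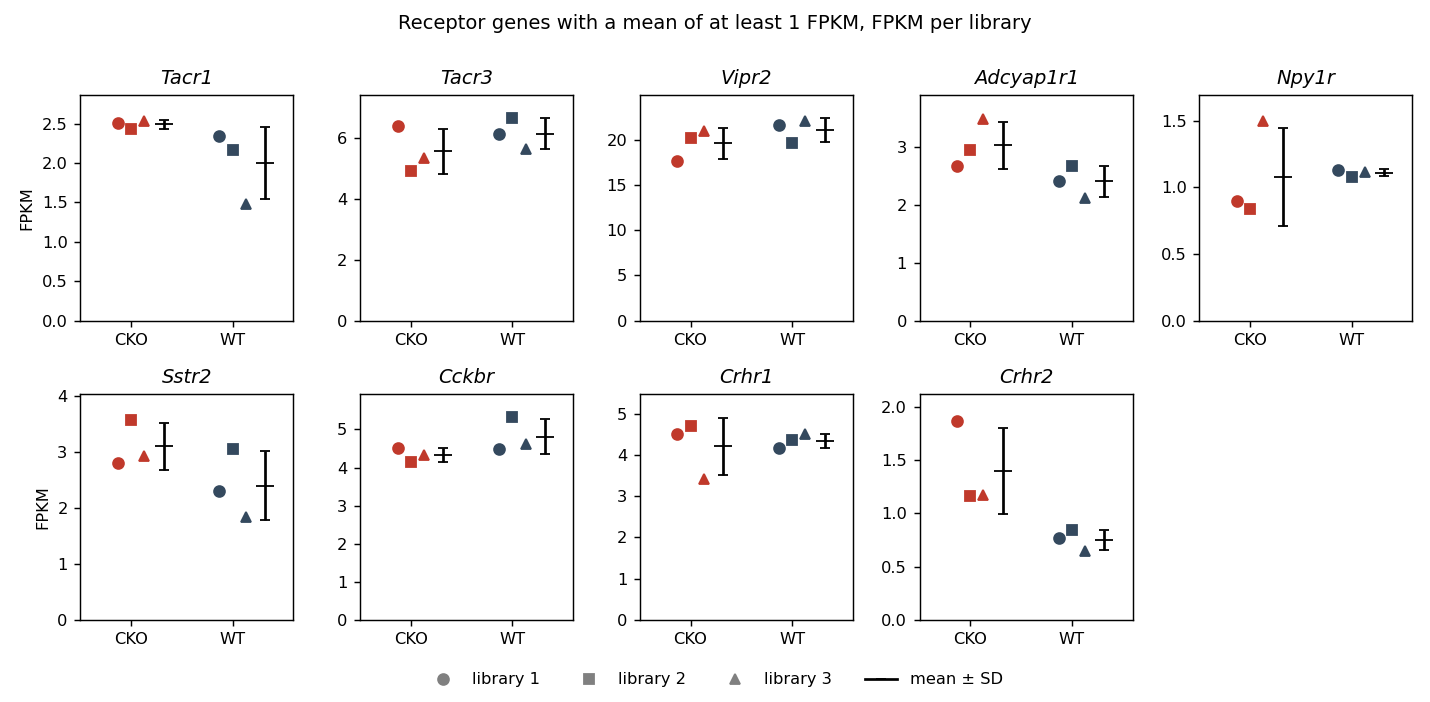
FPKM of the 9 tested receptor genes in each library, with CKO left of WT, 1 marker shape for each library number and the mean ± SD (n = 3) beside the points. Crhr2, Tacr1 and Adcyap1r1 show no overlap between the groups, all with higher CKO values, as for 6.96% of all tested genes, though Crhr2 reached the filter only through CKO, and Vipr2 is the most abundant at 17.7 to 22.1 FPKM.

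Other peptide precursors showed no called gene either. Of 32 further precursors, 12 were tested and 20 were below the filter, 7 of them listed at 0 in all libraries. Cartpt, the precursor of the CART peptide and a marker of some ganglion cells, was more abundant than any of the 10 precursors above, at 83.6, 74.0 and 80.1 FPKM in CKO, against 78.1, 80.8 and 80.8 FPKM in WT libraries. Its log2 fold change was -0.01 with the narrow interval of -0.14 to 0.11 (limma adjusted p = 0.965). Nmb, the neuromedin B precursor, was the 1 gene of the 12 with an unadjusted p under 0.05, against 7.88% of all tested genes. It was at 3.59, 4.24 and 4.14 FPKM in CKO, against 2.32, 2.39 and 3.79 FPKM in WT libraries, and WT 3 overlapped the CKO range. The log2 fold change was 0.40 (interval 0.04 to 0.76, limma adjusted p = 0.598). The fold changes of the 12 lay above 0 for 6 and below 0 for 6, with a median of -0.0024. Apln, the apelin precursor, was at 0.27 on the log2 scale, and at 0.13 to 0.37 with 1 library left out. It was the 1 gene of the 12 whose groups did not overlap. Its CKO values were the higher, as for 6.96% of all tested genes, by a small margin between CKO 2 and WT 1. Grp, the gastrin-releasing peptide precursor, was at 0.28, and at 0.12 to 0.40 with 1 library left out. Ghrh, the growth hormone-releasing hormone precursor, reached the filter only through CKO, chiefly CKO 2 at 2.81 FPKM, and its 0.41 ran from 0.04 to 0.74 with 1 library left out. Tac4, the third tachykinin gene, was near 0, at 0.127, 0 and 0.450 FPKM in CKO and 0.133, 0 and 0.125 FPKM in WT libraries.

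Among genes that process and store prohormones, Vgf and Pcsk1n were lower in every CKO library than in any WT library, as for 6.95% of all tested genes. Scg5 and the granin Chga were higher in every CKO library than in any WT library, as for 6.96%. None of these genes passed the test. Chga was at 129.6 to 134.8 FPKM in CKO and 110.9 to 128.6 FPKM in WT libraries. All 14 listed genes were tested and 0 were called. At an unadjusted p under 0.05, 1 had a higher and 2 a lower mean in CKO, against 3.52% and 4.36% of all tested genes. Vgf, itself a precursor of secreted peptides, was at 5.90, 4.86 and 6.56 FPKM in CKO, against 10.2, 11.98 and 11.1 FPKM in WT libraries (log2 fold change -0.84, interval -1.09 to -0.59, limma adjusted p = 0.118). Pcsk1n, the precursor of the inhibitor proSAAS of prohormone convertase, was at 38.0, 22.4 and 23.9 FPKM in CKO, against 50.4, 48.3 and 43.0 FPKM in WT libraries (-0.77, limma adjusted p = 0.352). Without CKO 1, the highest CKO library, its limma adjusted p was 0.0201, and over the 17 alternatives it ran from 0.0201 to 0.776. Scg5, the chaperone of prohormone convertase Pcsk2, was at 153.5, 156.7 and 161.3 FPKM in CKO, against 127.4, 129.6 and 146.4 FPKM in WT libraries (0.23, limma adjusted p = 0.418). The convertase Pcsk2 itself averaged 19.3 FPKM in both groups (log2 fold change 0.0027, interval -0.12 to 0.12). The convertase Pcsk1 had a log2 fold change of 0.13 (interval -0.10 to 0.36), the carboxypeptidase Cpe one of -0.04 (-0.16 to 0.08) and the amidating enzyme Pam one of -0.04 (-0.16 to 0.09).

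**Figure D4:**
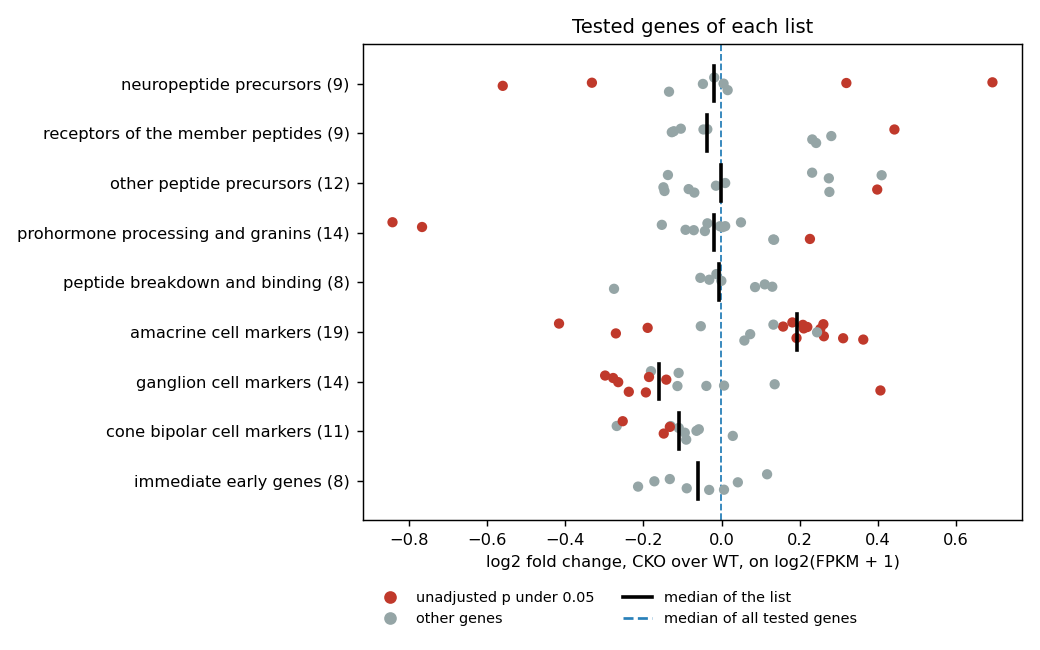
Log2 fold change of CKO over WT for the tested genes of each list, with the number tested in brackets, the median of the list as a black bar and the median of all tested genes as a dashed line. The precursors spread to both sides of 0 around a median of -0.02, the amacrine markers lie mostly above 0 with a median of 0.19, and the ganglion cell markers mostly below 0 with a median of -0.16.

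Ganglion cells, the output neurons that hold some of these peptides and many of the receptors, were followed by 14 markers, all tested. None was called, 7 had lower and 1 had higher means in CKO at an unadjusted p under 0.05, against 4.36% and 3.52% of all tested genes, and their summed level was 784.2 to 803.6 FPKM in CKO and 858.5 to 926 FPKM in WT libraries. The smallest p values were those of the nicotinic receptor subunit Chrna6 (log2 fold change -0.28), the neurofilament genes Nefm (-0.30) and Nefh (-0.24) and, in the other direction, the transcription factor Eomes (0.41). The part of these markers in the values of Adcyap1 and the receptors was not tested.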

How the data were processed

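The deposited values are FPKM per gene symbol, 1 table for each library; the build mm10 and the tools Cufflinks 2.2.1, SAMtools 1.11, TopHat2 2.0.13 and Bowtie2 2.3.5.1 are listed without roles, per the submitters' processing notes. Annotation, parameters and strand setting are not stated there. TRIzol RNA went into stranded TruSeq mRNA libraries, per the labels. FPKM keeps no read counts, so absolute depth is unknown and no counting interval was set; their number and spread limit the precision. In WT 3, 27 symbols that had turned into dates were put back using the other libraries, whose rows are in the same order.

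Values were compared as log2(FPKM + 1), a scale that understates changes of low genes, for the 13215 genes averaging 1 FPKM or more. The test was limma 3.58.1 in R 4.3.3 (eBayes with trend, two-sided, Benjamini-Hochberg over all tested genes, threshold 0.05). It was also run on simulated data with independent normal noise, which limma assumes. That run cannot show how the test behaves on these libraries. With 3 libraries a group, a single-gene permutation test has a smallest possible p of 0.1, so none was used. Positions are from GENCODE M21 (GRCm38), which held 95.7% of symbols, and promoters from RefSeq on GRCm38.p6.

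The precursors, the gene lists and the tests were chosen with earlier results of these data known. Named genes are the 10 precursors, Cyfip2, in each other list the tested members of smallest p, receptors set beside their ligands and, at their levels, defining markers of other tissues (Krt5, Krt12, Krt14); Opn4, Cartpt, Tac4, Pcsk2, Pcsk1, Cpe, Pam, Mme, Fos, Egr1, receptors below the filter and Arr3, a photoreceptor marker, were named after their values were seen. Some genes that this rule selects are not reported here. The lists of microglia, endothelium and blood (0 of 7 tested called), muscle and oligodendrocytes (0 of 3) and photoreceptors and Muller glia (0 of 11) gave no call. Same-numbered CKO and WT libraries deviated together with r of 0.0063 to 0.10, and differently numbered ones with r of -0.12 to 0.036. These values are small and the labels state no pairs, so the numbers were not taken as pairs. Alternatives were 2 other pseudocounts, 3 other filters, 2 scalings, a replicate block, robust and untrended eBayes, sample weights and each library left out.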

Additional observations from a re-analysis of the deposited data

How the results depend on the processing

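No precursor passed the threshold in any of the 17 alternative fits, and no gene of the other lists did, except Pcsk1n without CKO 1, so the count of called processing and granin genes ran from 0 to 1 when a library was left out. Of 152 fold changes of the 9 tested precursors under alternatives, 141 kept their direction and 11 turned; all 11 belonged to Vip, Adcyap1, Penk and Sst. With sample weights Vip was at -0.0932, and with a pseudocount of 0.01 Sst was at 0.00095. With 1 library left out the log2 fold change ran from -0.19 to 0.13 for Vip, -0.0916 to 0.0752 for Adcyap1, -0.16 to 0.11 for Penk and -0.44 to 0.32 for Sst. For Cyfip2, at -2.29, the limma adjusted p was 0.0740 without a filter, 0.111 with robust eBayes and 0.102 without trend; with 1 library left out its fold change ran from -2.555 to -2.147, and the adjusted p was 0.109 without CKO 1, 0.112 without CKO 2, 0.117 without CKO 3, 0.197 without WT 2 and 0.0663 without WT 3. The cause was not tested. With the replicate number as a block, 0 precursors were called and Tac2 had a limma adjusted p of 0.234; same-numbered libraries share only a number. Depth is unknown, so the read support of low genes such as Crh could not be given.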

Other observations

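Enzymes that break peptides down after release, and the Crh-binding protein, were measured beside the precursors. Of 12 listed genes 8 were tested, 0 were called and 0 had an unadjusted p under 0.05. The smallest p values were those of Ece1, an endothelin-converting metallopeptidase, and Prep, a prolyl peptidase. Ece1 averaged 17.4 ± 0.753 FPKM in CKO, against 15.8 ± 0.801 FPKM in WT (mean ± SD over 3 libraries), with overlapping groups. Prep averaged 16.7 ± 0.574 FPKM in CKO, against 15.4 ± 0.363 FPKM in WT. The groups of Prep did not overlap, with higher CKO values, as for 6.96% of all tested genes. Crhbp, which binds the Crh peptide, was at 2.24, 1.81 and 2.69 FPKM in CKO, against 3.75, 3.68 and 1.68 FPKM in WT libraries. Thop1, an oligopeptidase, had a log2 fold change of 0.09. Mme, the neutral endopeptidase that cleaves enkephalins and substance P, was below 0.5 FPKM in every library.

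Immediate early genes, which neurons switch on after activity and which include regulators of several peptide genes, were measured as well. Of 10 listed genes 8 were tested, with 0 called and 0 at an unadjusted p under 0.05. The widest spread within groups among the 8 was that of Fos and Egr1. Fos was at 12.2, 13.3 and 21.4 FPKM in CKO, against 15.7, 8.76 and 26.8 FPKM in WT libraries, and Egr1 at 14.5, 27.3 and 37.5 FPKM in CKO, against 29.6, 9.37 and 40.7 FPKM in WT libraries. By p value, the leading genes of the list were Junb (log2 fold change -0.21), Ier2 (-0.17), Nr4a1 (-0.13) and Dusp1 (-0.09).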
